A study of Mus musculus with 12 samples.

Results

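Hox genes encode homeodomain transcription factors that give cells of the body axis their regional identity. They were taken from the RNA-seq tables of adipose stromal cells as every gene named Hoxa, Hoxb, Hoxc or Hoxd followed by digits only, which gave 39 of the 55536 genes listed. These 39 genes fall into 4 clusters, with 11 genes in HoxA, 10 in HoxB, 9 in HoxC and 9 in HoxD. In GRCm38 coordinates HoxA lies on chromosome 6 from 52155590 to 52260880, HoxB on chromosome 11 from 96194316 to 96368256, HoxC on chromosome 15 from 102921103 to 103036852 and HoxD on chromosome 2 from 74668310 to 74765142.

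The libraries came from the stromal vascular fraction of inguinal white adipose tissue (iWAT), the subcutaneous depot of the groin, of male mice on a mixed C57BL6/J-129SV background kept at room temperature. There were 4 libraries of 2-month-old controls, 4 of 12-month-old controls and 4 of 12-month-old Pdgfrb-KO mice. The labels call both control groups wild type and the third group PdgfrB Knock Out. Per the study's methods, control mice carried Sma-CreERT2, a tamoxifen-inducible Cre driven by the α-smooth muscle actin promoter, with a Rosa26 tdTomato or mTmG reporter. Pdgfrb-KO mice carried the same driver and reporter with floxed alleles of Pdgfrb, the receptor for platelet-derived growth factor B. Tamoxifen was injected on consecutive days and followed by a washout at room temperature, but the sources do not say whether the 2-month controls of the RNA-seq received it. Because the driver is active in smooth muscle and mural cells, deletion is expected only in part of the fraction, and Pdgfrb transcript from other cells or from the recombined locus remains in the measurement. The samples were bulk tissue fractions, so that fewer cells of a type and less RNA per cell cannot be told apart.

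Within each cluster the genes are ordered by paralog number. During development, genes with low numbers are switched on earlier and nearer the head, and genes with high numbers later and nearer the tail and the ends of the limbs. Hox proteins bind DNA together with TALE homeodomain partners such as Pbx and Meis, retinoic acid is an early inducer of the clusters, and Polycomb and Trithorax group proteins keep genes off or on once the pattern is set. Adult fibroblasts and fat progenitors are known to keep a Hox pattern that depends on where in the body they came from.

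The deposited values are read counts per gene divided by a size factor for each library and rounded, called normalized counts here, and they summed to 19616978 to 21872836 per library. Pdgfrb itself was listed at 2536, 2367, 2349 and 2407 normalized counts in the 2-month controls, at 3000, 4380, 3258 and 2399 in the 12-month controls and at 1882, 2145, 1707 and 1749 in the 12-month Pdgfrb-KO libraries. All 4 Pdgfrb-KO libraries lay below every control library, and the log2 fold change against the 12-month controls was -0.77 ± 0.17 (SE, n = 4 per group, adjusted p = 0.016, limma). Markers of fibroblastic stroma, mural cells, endothelial cells, macrophages, lymphocytes and Schwann cells were all detected, and none of the markers examined was at 0 in every library.

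A Hox gene was tested where 4 or more of the 8 libraries of a comparison had a normalized count of 10 or more. By this measure 29 of the 39 Hox genes were tested, 7 stayed below the filter and 3 were listed at 0 in all 12 libraries. The 3 listed at 0 were Hoxc12, Hoxd12 and Hoxd13, all from the posterior end of their clusters. The 7 below the filter were Hoxa13, Hoxb1, Hoxb13, Hoxc13, Hoxd1, Hoxd3 and Hoxd11, and the highest value that any of them reached in any library was 11, in Hoxd3. Hoxa13 was at 4 or less in every library, Hoxc13 at 5 or less, Hoxd11 at 3 or less, Hoxb1 at 2 or less and Hoxb13 at 1 or less. Thus no paralog 12 or 13 gene and neither of the paralog 1 genes of HoxB and HoxD passed. Hoxd3 and Hoxd4 need care, since 62.4% of the exon sequence of Hoxd3 and 52.3% of that of Hoxd4 is shared with genes on the same strand, here each other and the transcript Gm28230.

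**Figure D1:**
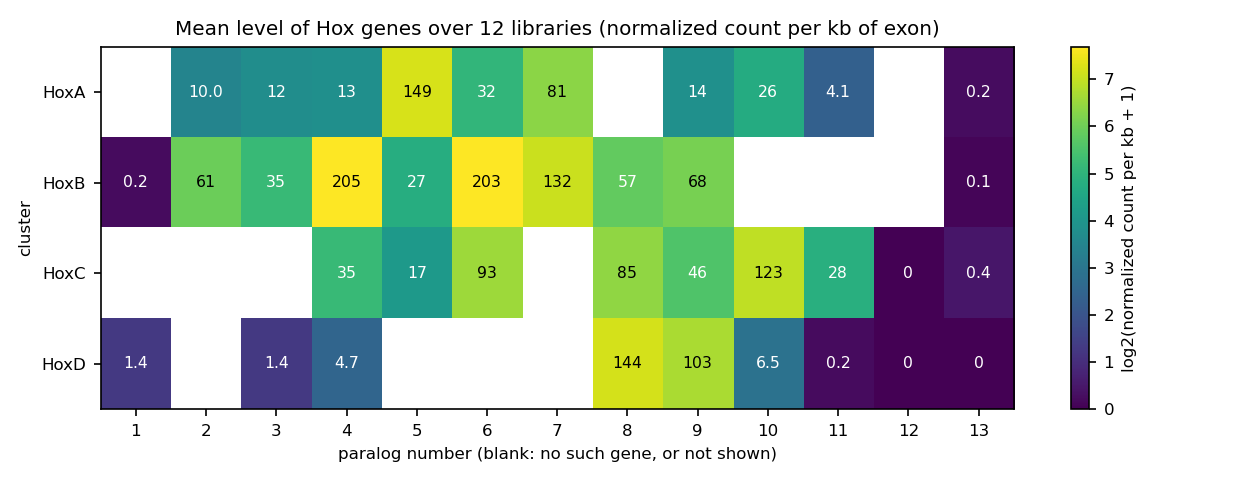
Mean level of the Hox genes over the 12 libraries, as normalized count per kb of exon, with clusters in rows and paralog numbers in columns. Colour gives log2 of the level plus 1, the printed number gives the level, and blank cells have no gene or are not shown. Levels are highest at Hoxa5 and Hoxa7 in HoxA, at Hoxb4, Hoxb6 and Hoxb7 in HoxB, at Hoxc6, Hoxc8 and Hoxc10 in HoxC and at Hoxd8 and Hoxd9 in HoxD, and are at 0.37 or less for every paralog 13 gene.

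Levels between genes were compared as normalized count per kb of exon, averaged over the 12 libraries. Hoxb4 and Hoxb6 were highest, at 205 ± 45.0 and 203 ± 60.4 per kb (SD, n = 12), and followed by Hoxa5 at 149 ± 43.6, Hoxd8 at 144 ± 37.7, Hoxb7 at 132 ± 33.0, Hoxc10 at 123 ± 27.2 and Hoxd9 at 103 ± 21.1. Hoxb4 stood at the 70.5th percentile of the 16744 genes tested in either comparison, whose median level was 86.7 per kb. The Hox genes of this fraction were thus of middle to low abundance among expressed genes. The lowest tested genes were Hoxa11 at 4.12 per kb, Hoxd4 at 4.66 and Hoxd10 at 6.52. In the order of the 29 tested genes, 27 of the 28 neighbouring pairs differed by less than the larger of their SDs, and the step from Hoxa10 at 25.5 to Hoxc5 at 16.8 per kb was the 1 exception. With the longest coding transcript as the length, Hoxb4 and Hoxb6 kept ranks 1 and 2, Hoxb2 moved from rank 12 to rank 7 and Hoxc10 from rank 6 to rank 9.

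Summed over its genes, HoxB was at 789 normalized counts per kb, HoxC at 427, HoxA at 353 and HoxD at 262, as means over the 12 libraries. This order did not hold in each group, since HoxA at 375 ± 53.9 per kb was above HoxC at 329 ± 14.6 in the 2-month controls (SD, n = 4). Each cluster had its own peak. In HoxA, Hoxa5 at 149 and Hoxa7 at 81.4 per kb stood above Hoxa6 at 32.2, and Hoxa2 to Hoxa4 lay between 9.95 and 13.3. In HoxD, the abundant genes were neighbours, Hoxd8 and Hoxd9, while Hoxd10 was at 6.52 and Hoxd11 at 0.16. HoxC was more abundant toward the posterior end, with Hoxc10 at 123 and Hoxc11 at 27.7 per kb before Hoxc12 at 0. HoxA was tested up to the same paralog number, with Hoxa10 at 25.5 and Hoxa11 at 4.12. Paralog 10 genes differed widely between clusters, from 6.52 for Hoxd10 and 25.5 for Hoxa10 to 123 for Hoxc10.

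The sequence before the start site is shown for the most abundant member, Hoxb4, and for Hoxd13, which was listed at 0 in every library, as 250 bases upstream of the RefSeq start on the plus strand of GRCm38.p6, with matches to TATAAA, to the letters CCAAT or to the letters TGATTNAT on either strand in capitals. TATAAA is the core of the TATA box, CCAAT the site of NF-Y, and TGATTNAT the composite site known for Pbx and Hox proteins. Hoxb4 is chr11:96318017-96318266 and Hoxd13 is chr2:74667975-74668224.
Hoxb4: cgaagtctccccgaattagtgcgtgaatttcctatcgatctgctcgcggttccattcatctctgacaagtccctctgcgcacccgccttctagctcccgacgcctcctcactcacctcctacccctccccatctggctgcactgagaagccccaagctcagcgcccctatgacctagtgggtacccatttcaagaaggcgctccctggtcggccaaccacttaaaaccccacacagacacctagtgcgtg
Hoxd13: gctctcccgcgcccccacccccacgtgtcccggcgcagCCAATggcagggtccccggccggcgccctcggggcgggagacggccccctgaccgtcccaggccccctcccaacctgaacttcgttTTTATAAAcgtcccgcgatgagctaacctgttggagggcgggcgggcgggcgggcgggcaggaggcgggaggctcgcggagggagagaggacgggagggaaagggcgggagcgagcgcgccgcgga

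The window of Hoxd13 held matches to TATAAA, on both strands and overlapping, and to the letters CCAAT, while that of Hoxb4 held none of the 3 motifs. Hoxd13 had 31 CpG dinucleotides and 74.4% G and C in these 250 bases, against 14 and 58.0% for Hoxb4. RefSeq windows were at hand for 22 of the 39 Hox genes, in 24 windows, with Hoxa10 and Hoxd11 entering more than once. Some of these windows overlap annotated exons, and those of Hoxa3 and Hoxc4 do so at all 250 bases. They are thus not upstream sequence alone, and this overlap was not measured for the other windows of the reference. Their median observed to expected CpG ratio was 0.72, against 0.37 over all 32851 windows of the reference, and it was 0.59 in the 16 windows of tested Hox genes and 0.78 in the 8 windows of genes not tested. CCAAT was found in 58.3% of the Hox windows and in 33.9% of all windows, TATAAA in 16.7% and 12.4%, and TGATTNAT in 8.33% and 2.83%. With 24 windows these shares are a description of the sequences and carry no test.

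The first comparison asked which Hox genes differed between 2-month and 12-month controls. Of the 7 tested HoxC genes 5 were higher at 12 months, while 3 of 8 HoxB genes and 1 of 4 HoxD genes were lower and no HoxA gene passed the test by limma. Of 28 Hox genes tested, 5 rose, namely Hoxc11, Hoxc9, Hoxc8, Hoxc4 and Hoxc6, and 4 fell, namely Hoxd4, Hoxb8, Hoxb3 and Hoxb9 (limma, adjusted p under 0.05 over all 16399 genes tested). Thus 32.1% of the tested Hox genes were called, against 22.7% of all genes, of which 11.3% were higher and 11.4% lower. In 12 of the 28 Hox genes the values of the 2 ages did not overlap, which held for 24.8% of all genes. The median log2 fold change was -0.07 over the 28 Hox genes and -0.01 over all genes. Among the 9 HoxA genes, 0 passed by limma at the adjusted threshold, and 2 had an unadjusted p under 0.05.

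All 7 tested HoxC genes had log2 fold changes above 0 under the deposited scaling, TMM and quantile normalization, with medians of 0.70, 0.72 and 0.65, and 5 of 7 did, with a median of 0.24, when libraries were rescaled to the fibroblastic stroma markers. That last scaling moved the median of all genes to -0.47. It divides each library by a single factor, so the HoxC median relative to all genes stayed at 0.71 by construction. This is not further support. Hoxc11, a posterior gene known from hindlimb patterning, was at 40, 30, 36 and 41 normalized counts at 2 months and at 63, 83, 78 and 68 at 12 months. Hoxc9, which in the spinal cord marks thoracic levels, was at 61, 82, 85 and 70 and then at 138, 158, 106 and 123. In both genes every 12-month control was above every 2-month control. Their log2 fold changes were 0.97 ± 0.19 for Hoxc11 (SE, n = 4 per group, adjusted p = 0.0039, limma) and 0.81 ± 0.17 for Hoxc9 (adjusted p = 0.0070).

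Hoxc8, a trunk gene also known as a marker of white as opposed to brown fat and a repressor of the brown programme, was at 165, 149, 175 and 138 normalized counts at 2 months and at 267, 323, 204 and 239 at 12 months. Hoxc4, at the anterior end of the cluster, was at 58, 46, 69 and 79 and then at 97, 102, 109 and 97. Hoxc6 was at 195, 199, 192 and 177 and then at 262, 300, 233 and 221. The ages did not overlap in any of the 3 genes, and the smallest step between them was for Hoxc4, from 79 to 97. The log2 fold changes were 0.70 ± 0.15 for Hoxc8 (adjusted p = 0.0069, limma), 0.70 ± 0.19 for Hoxc4 (adjusted p = 0.0187) and 0.40 ± 0.12 for Hoxc6 (adjusted p = 0.0362). The call of Hoxc6 was lost when any of 6 of the 8 libraries was left out (adjusted p 0.0575 to 0.0958 in those fits, limma), and with stromal scaling its log2 fold change was -0.06. Its call was also lost with no filter on low values (adjusted p = 0.0831, limma), with quantile normalization (0.0658) and in one fit of all 12 libraries (0.0995). That of Hoxc4 was lost without 2-month control replicate 2 (adjusted p = 0.0522, limma). With stromal scaling the calls of Hoxc4, Hoxc8, Hoxc9 and Hoxc11 were lost as well (adjusted p = 0.406, 0.309, 0.188 and 0.0996, limma), and in one fit of all 12 libraries that of Hoxc11 was (adjusted p = 0.0588). The other HoxC genes did not pass, at 0.48 ± 0.27 for Hoxc5 and 0.25 ± 0.15 for Hoxc10 on the log2 scale, with 95% intervals from -0.10 to 1.05 and from -0.09 to 0.58.

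**Figure D2:**
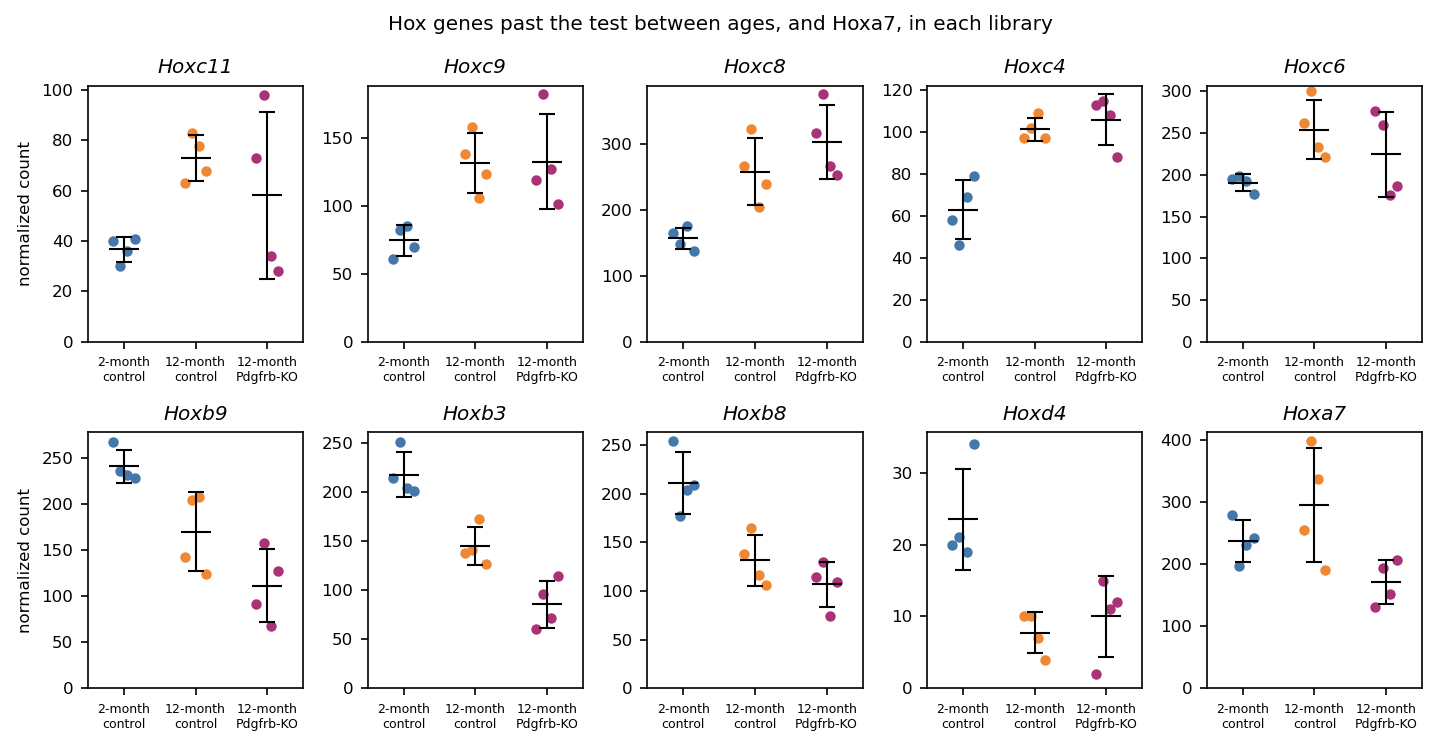
Normalized counts in each library (points, n = 4 per group) with the mean and SD (bars) for the 9 Hox genes past the test between ages and for Hoxa7. The 5 HoxC genes sit higher in every 12-month control than in any 2-month control, Hoxc11 is at 34 and 28 in 2 Pdgfrb-KO libraries, and Hoxb3, Hoxb8, Hoxb9 and Hoxd4 sit lower in both 12-month groups. With stromal scaling Hoxc6 turned to -0.06 on the log2 scale.

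In HoxB, 3 genes went the other way with age. Hoxb3, known for patterning of the hindbrain and pharyngeal region, was at 214, 251, 204 and 201 normalized counts at 2 months and at 138, 141, 172 and 127 at 12 months. Hoxb8, a trunk gene with roles in the spinal cord and in myeloid progenitors, was at 254, 177, 204 and 209 and then at 138, 165, 117 and 106. Hoxb9 was at 268, 236, 232 and 229 and then at 143, 205, 208 and 124. Every 12-month control was below every 2-month control for each of these genes. The log2 fold changes were -0.59 ± 0.14 for Hoxb3 (adjusted p = 0.0096, limma), -0.69 ± 0.17 for Hoxb8 (adjusted p = 0.0122) and -0.54 ± 0.17 for Hoxb9 (adjusted p = 0.0415). Hoxb3 and Hoxb8 stayed past the threshold whichever library was left out. Hoxb9 did so in 2 of 8 such fits, and its adjusted p ranged from 0.0204 to 0.106. Its call was also lost under TMM (adjusted p = 0.0528, limma) and without trend and robust estimation (0.071). The same held with a replicate block (0.0571) and in one fit of all 12 libraries (0.138). The 2 most abundant Hox genes did not pass the test, at -0.15 ± 0.15 for Hoxb4 and -0.14 ± 0.18 for Hoxb6, with 95% intervals from -0.47 to 0.18 and from -0.53 to 0.26.

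The upstream sequence of Hoxb8 is shown because it fell with age and was abundant enough for a precise value. It is chr11:96281655-96281904 on the plus strand, with motif matches in capitals as above.
Hoxb8: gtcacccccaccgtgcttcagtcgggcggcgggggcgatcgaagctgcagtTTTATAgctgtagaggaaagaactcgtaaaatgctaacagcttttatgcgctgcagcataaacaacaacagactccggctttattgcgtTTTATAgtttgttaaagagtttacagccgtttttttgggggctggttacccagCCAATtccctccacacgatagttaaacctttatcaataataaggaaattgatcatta

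Hoxd4 had the lowest log2 fold change of all tested Hox genes, at low counts. It was at 20, 21, 19 and 34 normalized counts at 2 months and at 10, 10, 7 and 4 at 12 months, so that the ages did not overlap. The log2 fold change was -1.52 ± 0.35 (adjusted p = 0.0095, limma), on the scale of log2 of the value plus 1. This scale tends to understate changes of low genes, except where single values are at 0. In the fit of all 12 libraries its adjusted p was 0.0508 by limma. All 4 tested HoxD genes had values below 0. Hoxd8 was at -0.27 ± 0.17 and Hoxd9 at -0.15 ± 0.18, and neither passed the test. Hoxd10 was at -1.35 ± 0.67 and did not pass either (adjusted p = 0.162, limma). It had 16, 13, 10 and 15 normalized counts at 2 months and 0, 8, 10 and 9 at 12 months, with means of 13.5 and 6.75. The library at 0 weighs heavily on this value, which ranged from -1.675 to -0.52 when single libraries were left out. The 250 bases upstream of the RefSeq start of Hoxd4, chr2:74721728-74721977 on the plus strand, are poor in CpG, with 3 such dinucleotides against 12 for Hoxb8.
Hoxd4: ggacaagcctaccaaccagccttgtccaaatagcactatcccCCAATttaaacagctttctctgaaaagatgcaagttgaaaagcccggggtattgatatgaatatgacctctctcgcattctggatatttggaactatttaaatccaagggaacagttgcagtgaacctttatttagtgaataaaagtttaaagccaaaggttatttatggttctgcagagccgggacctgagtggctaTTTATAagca

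In HoxA, Hoxa10, known for roles in limb, uterus and body wall, was at 62, 64, 69 and 64 normalized counts at 2 months and at 90, 105, 78 and 85 at 12 months, with a log2 fold change of 0.45 ± 0.16 (adjusted p = 0.0578, limma). The ages did not overlap in this gene, yet it did not pass. It passed under TMM (adjusted p = 0.0478, limma), without trend and robust estimation (0.0234) and without 12-month control replicate 3 (0.0464). Hoxa5, the most abundant HoxA gene and one with known roles in fat and lung, was at 0.10 ± 0.19, with a 95% interval from -0.32 to 0.52.

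**Figure D3:**
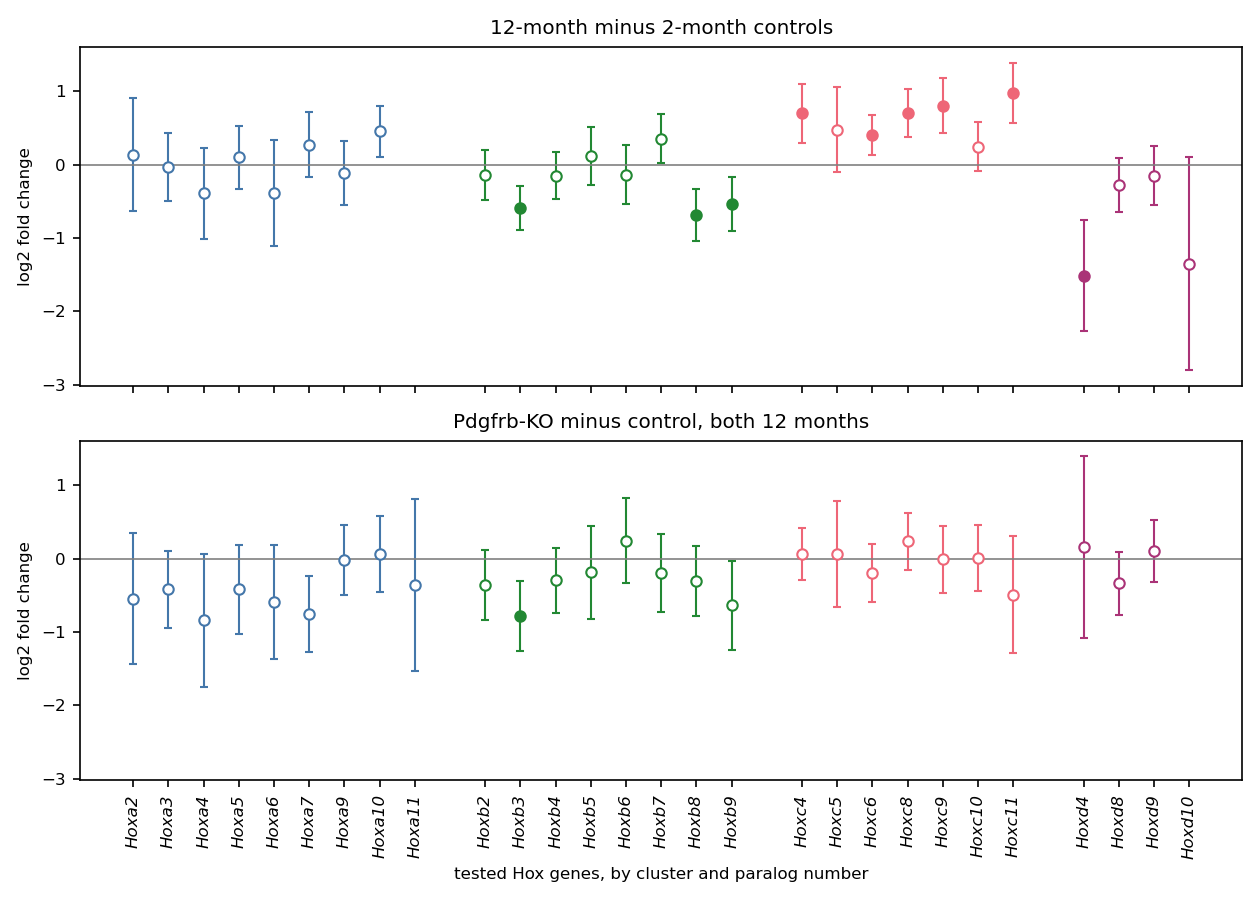
Log2 fold change of the tested Hox genes shown, with the 95% interval (bars) by cluster and paralog number, for 12-month against 2-month controls (top) and Pdgfrb-KO against control at 12 months (bottom). Filled points passed an adjusted p under 0.05. All 7 HoxC points lie above 0 in the upper panel, which became 5 of 7 with stromal scaling. In the lower panel 19 of the 27 points lie below 0, where 8437 of all 16344 genes tested did. Stromal scaling moved the median of the Hox genes in that comparison from -0.30 to -0.11.

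The shift between clusters can be read without any scaling of the libraries, from the share of each cluster in the summed normalized counts of the 39 Hox genes of a library. HoxC held 15.2%, 17.6%, 19.2% and 15.9% in the 2-month controls, 25.1%, 23.6%, 24.1% and 25.6% in the 12-month controls and 27.1%, 28.0%, 31.1% and 26.3% in the Pdgfrb-KO libraries. The 3 groups did not overlap. The summed HoxC counts were 768 ± 32.5, 1123 ± 169 and 1137 ± 259 in the same groups, so that the 12-month groups overlapped in the sum while the HoxA, HoxB and HoxD sums had lower means in the Pdgfrb-KO libraries. HoxB held 47.2 ± 1.05% at 2 months, 41.0 ± 0.95% in 12-month controls and 40.1 ± 2.86% in Pdgfrb-KO libraries (SD, n = 4 each), so that every 2-month control was above every 12-month library and the 12-month groups overlapped. HoxA held 19.3 ± 1.15%, 20.7 ± 1.39% and 17.6 ± 1.03%, and HoxD held 16.5 ± 1.52%, 13.6 ± 0.97% and 14.1 ± 1.12%. The sum of all Hox genes was 4560 ± 459, 4582 ± 833 and 4062 ± 990 normalized counts in the same groups, which overlapped throughout. By paralog number, genes 1 to 4 held 29.0 ± 1.73% of the sum at 2 months, 25.6 ± 0.79% in 12-month controls and 23.1 ± 1.51% in Pdgfrb-KO libraries, and genes 9 to 13 held 21.0 ± 0.57%, 22.3 ± 0.99% and 24.0 ± 0.99%. These shares rest on the genes named above and are given as a description.

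**Figure D4:**
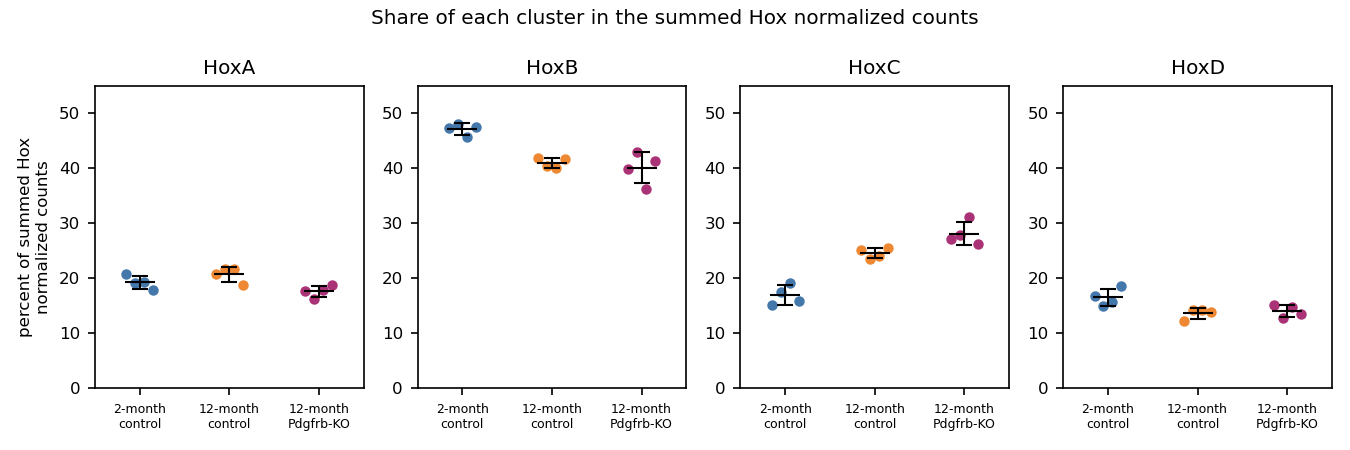
Share of each cluster in the summed normalized counts of all Hox genes of a library, in percent (points, 1 per library; bars, mean and SD; n = 4 per group). HoxC lies between 15.2% and 19.2% in 2-month controls, 23.6% and 25.6% in 12-month controls and 26.3% and 31.1% in Pdgfrb-KO libraries, and HoxB is highest in 2-month controls.

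Markers of cell types moved with age in the same libraries. The summed level of the 12 fibroblastic stroma markers was 216814 to 274373 normalized counts at 2 months. It was 367715 to 514388 in 12-month controls and 287961 to 399808 in Pdgfrb-KO libraries. Gsn alone made up the largest part of this sum, at means of 129162, 265624 and 192986 in the 3 groups. Of the 12 markers 8 rose with age, 0 fell and 4 did not pass. Mural cell markers summed to 46708 to 53804 at 2 months and 29099 to 49795 in 12-month controls, with 7 of 9 lower and 1 higher. All 6 Schwann cell markers fell with age, from sums of 9526 to 12401 to sums of 4150 to 4766. Macrophage markers summed to 15208 to 22326, 31770 to 45238 and 65331 to 109506 in the 3 groups, with 7 of 9 higher with age. Adipocyte markers had 4 of 6 higher with age, endothelial markers 1 of 7 lower, lymphocyte markers 1 of 9 higher and 1 lower, and skeletal muscle and epithelial markers 0 of 6 past the test each. Of all genes tested with age, 11.3% were higher and 11.4% lower. The part of these cell types in the Hox differences was not tested.

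The second comparison asked whether deletion of Pdgfrb in Sma-expressing cells changed the Hox pattern at 12 months. A single Hox gene passed, Hoxb3, which was lower in the Pdgfrb-KO libraries. This was 1 of 28 Hox genes tested, or 3.57%, against 9.42% of the 16344 genes tested in this comparison, with 4.96% higher and 4.46% lower. Hoxb3 was at 138, 141, 172 and 127 normalized counts in controls and at 60, 96, 72 and 114 in Pdgfrb-KO libraries, so that the groups did not overlap. This held for Hoxb3 alone among the Hox genes and for 17.1% of all genes. Its log2 fold change was -0.78 ± 0.22 (SE, n = 4 per group, adjusted p = 0.0464, limma). The call was lost when any of 7 of the 8 libraries was left out, with adjusted p from 0.0566 to 0.137 in those fits, and held without Pdgfrb-KO replicate 4 (adjusted p = 0.0217). Hoxb3 shares 52.9% of its exon sequence with the antisense RNA Hoxb3os, and reads of both cannot be told apart if the counting ignored strand. Hoxb3os itself was at -0.46 ± 0.38 on the log2 scale in this comparison and did not pass.

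No Hox gene was higher at the adjusted threshold by limma, and none had an unadjusted p under 0.05 in that direction, while 3 were lower at that unadjusted level. Besides Hoxb3 these were Hoxa7 and Hoxb9. Hoxa7, a trunk gene, was at 255, 398, 337 and 190 normalized counts in controls and at 130, 193, 152 and 206 in Pdgfrb-KO libraries, and the groups overlapped through 12-month control replicate 4 at 190. Its log2 fold change was -0.76 ± 0.23 (adjusted p = 0.0677, limma), and without that library the adjusted p was 0.0268. Hoxb9 was at 92, 158, 68 and 128 in Pdgfrb-KO libraries, against 143, 205, 208 and 124 in controls, with a log2 fold change of -0.64 ± 0.27 (adjusted p = 0.162).

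Of the 28 Hox genes, 20 had log2 fold changes below 0, and the median was -0.30 against -0.01 over all genes. Of all 16344 genes tested, 8437 were below 0. The Hox genes of a library are not independent of each other. The median deviation of a library's tested Hox genes from their group means had an SD of 0.31 within groups (log2 scale, n = 4 per group). Counts of genes below 0 are therefore a description and carry no test. With stromal scaling the median of all genes was 0.18 and that of the Hox genes -0.11. In HoxA, 9 of 10 genes were below 0 with a median of -0.42, from Hoxa4 at -0.84 ± 0.41 to Hoxa9 at -0.02 ± 0.22, and 0 of 10 passed. None of the 5 HoxC genes that rose with age passed here by limma, with log2 fold changes of -0.20 ± 0.18 for Hoxc6, 0.06 ± 0.16 for Hoxc4, 0.23 ± 0.18 for Hoxc8 and -0.01 ± 0.21 for Hoxc9. Their 95% intervals ran from -0.59 to 0.20, from -0.30 to 0.42, from -0.15 to 0.62 and from -0.47 to 0.45. Hoxc11 spread widely among the Pdgfrb-KO libraries, at 73, 98, 34 and 28 normalized counts, and its log2 fold change was -0.49 ± 0.36. The spread was not particular to Hoxc11. Pdgfrb-KO replicates 1 and 2 also stood above replicates 3 and 4 in Hoxb6, at 546, 642, 269 and 320. The sum of all Hox genes was at 4485, 5245, 3065 and 3454 in these libraries. Other genes did not split so, such as Hoxa9 at 70, 75, 80 and 66. Hoxd4 was at 2, 15, 11 and 12 in Pdgfrb-KO libraries, with a log2 fold change of 0.16 ± 0.56. Hoxa11, tested here only, was at 12, 14, 19 and 4 in controls and at 16, 11, 4 and 6 in Pdgfrb-KO libraries.

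The cell type markers moved in this comparison too. Macrophage markers were higher in the Pdgfrb-KO libraries for 8 of 9 genes, all 6 skeletal muscle markers were lower, with sums of 582 to 1543 against 2422 to 6000 normalized counts in controls, and 1 of 12 stromal markers, Dcn, was lower. None of the 9 mural markers passed by limma, 1 of 7 endothelial markers, 1 of 6 adipocyte, 1 of 6 Schwann and 1 of 4 tested epithelial markers were lower, and 1 of 9 lymphocyte markers was higher. Of all genes tested in this comparison, 4.96% were higher and 4.46% lower. The part of these cell types in the Hox values was not tested.

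Stability over all 3 groups was examined in a fit of the 12 libraries, with a moderated F test. Of 29 Hox genes tested, 11 differed between groups, or 37.9%, against 42.9% of the 16960 genes tested. They included Hoxb3 (adjusted p = 0.000253, limma), Hoxc8 (adjusted p = 0.00107), Hoxb8 (0.00272), Hoxb9 (0.00397), Hoxc4 (0.0056), Hoxc9 (0.00575), Hoxa7 (0.0275), Hoxa4 (0.0328), Hoxd4 (0.0362) and Hoxd8 (0.0433). The other 18 did not pass. The lowest F values belonged to Hoxb5, Hoxa9, Hoxd9 and Hoxb6, with adjusted p of 0.809, 0.8, 0.791 and 0.713. Hoxb5 was at 71.8 ± 7.04, 78.8 ± 16.2 and 72.0 ± 26.5 normalized counts in the 3 groups, and Hoxa9 at 80.3 ± 9.43, 75.3 ± 19.0 and 72.8 ± 6.08.

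Between the 12-month Pdgfrb-KO libraries and the 2-month controls, 12 of 29 Hox genes passed in the same fit, 3 higher and 9 lower, or 41.4% against 46.1% of all genes. The higher genes were Hoxc8, at 0.94 ± 0.16, Hoxc9, at 0.80 ± 0.20, and Hoxc4, at 0.76 ± 0.18 on the log2 scale. The lower genes included Hoxb3, Hoxd4, Hoxa4, Hoxb9, Hoxb8, Hoxa6, Hoxd8 and Hoxb2, from -1.37 ± 0.19 for Hoxb3 to -0.50 ± 0.19 for Hoxb2. This contrast shares its 2-month libraries with the comparison of ages and its Pdgfrb-KO libraries with the comparison of genotypes, so that its values are set beside theirs and not counted as further support. Against the 2-month controls the log2 fold change of Hoxb3 was -0.59 in 12-month controls and -1.37 in Pdgfrb-KO libraries, and that of Hoxc8 was 0.70 and 0.94.

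The clusters also hold microRNA genes, which lower the output of messenger RNAs that carry matching sites. Their mature forms are too short for these polyadenylated libraries and were not measured, and their RefSeq sequences are shown because their known targets include Hox genes named above. Capitals mark the seed, bases 2 to 8. The miR-196a form comes from a locus in HoxB (chr11:96265187-96265208, plus strand) and one in HoxC (chr15:102973365-102973386, plus strand), miR-196b from HoxA (chr6:52230129-52230150, minus strand), miR-10a from HoxB (chr11:96317186-96317208, plus strand) and miR-10b from HoxD (chr2:74726074-74726096, plus strand), in GRCm38.p6.
miR-196a-5p: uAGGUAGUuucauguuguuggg
miR-196b-5p: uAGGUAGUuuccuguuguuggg
miR-10a-5p: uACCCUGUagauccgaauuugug
miR-10b-5p: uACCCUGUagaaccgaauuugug

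The miR-196 forms share one seed and the miR-10 forms another. The 7 bases complementary to the miR-196 seed, ACTACCT on the sense strand, were found in the 3′ UTR of 8 of 39 Hox genes, or 20.5%, and of 6.05% of 21027 coding genes in GENCODE, with the longest coding transcript taken per gene. The median length of the 3′ UTR was 966 bases for Hox genes and 934 for all. The Hox genes were Hoxa4, Hoxa5, Hoxa7, Hoxa9, Hoxb1, Hoxb6, Hoxb7 and Hoxc8. The match to the miR-10 seed, ACAGGGT, was found in 4 Hox genes, among them Hoxa3, Hoxb3 and Hoxd1, which is 10.3% of Hox genes against 12.3% of all. Hoxb8 holds no perfect seed match, but 1 window of its 3′ UTR pairs with miR-196a-5p at 21 of 22 bases and forms a G with U pair at the other, and no other of 20900 coding genes had a window with 20 or more pairs. The windows are shown for Hoxb8 (chr11:96284888-96284909, plus strand, paired bases in capitals), for the 2 sites of Hoxc8 (chr15:102992976-102992997 and chr15:102993733-102993754, plus strand, seed match in capitals) and for 1 of the 4 sites of Hoxa7 (chr6:52215210-52215231, minus strand), and for the miR-10 site of Hoxb3 (chr11:96347287-96347309, plus strand).
Hoxb8, miR-196a: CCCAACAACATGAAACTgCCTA
Hoxc8, miR-196, first: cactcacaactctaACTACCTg
Hoxc8, miR-196, second: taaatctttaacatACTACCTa
Hoxa7, miR-196: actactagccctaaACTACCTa
Hoxb3, miR-10: tgacttaacgtgaaaACAGGGTa

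Of the 8 Hox genes with a miR-196 seed match, Hoxb1 was below the filter, Hoxc8 rose with age and the other 6 did not pass, with Hoxa7 at 0.27 ± 0.20 on the log2 scale. Hoxb8, with its longer pairing, fell with age. Of those named with a miR-10 seed match, Hoxb3 fell, Hoxa3 did not pass and Hoxd1 was below the filter.

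Noncoding RNAs of the clusters were low. Hoxb3os was at 51 to 216 normalized counts over the 12 libraries, Hoxd3os1 at 38 to 88 and Hotairm1, an antisense transcript of HoxA, at 8 to 29. With age their log2 fold changes were -0.07 ± 0.26 for Hoxb3os, 0.28 ± 0.23 for Hoxd3os1 and -0.34 ± 0.40 for Hotairm1, and none passed. Among the 12 noncoding and flanking genes of the clusters tested with age, 1 passed, Skap2, a neighbour of HoxA, at 0.29 ± 0.09 (adjusted p = 0.0455, limma). Of all genes, 22.7% passed with age. The flanking genes of HoxC did not pass, at 0.51 ± 0.18 for Smug1, 0.09 ± 0.08 for Cbx5 and 0.03 ± 0.09 for Calcoco1. None of the 11 tested in the knockout comparison passed by limma, where 9.42% of all genes did.

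Transcripts of the TALE homeodomain genes, whose proteins are DNA-binding partners of Hox proteins, were all detected. With age 1 of 11 rose and 3 fell, where 11.3% of all genes were higher and 11.4% lower. Meis1 was at 46, 91, 114 and 74 normalized counts at 2 months and at 136, 185, 132 and 105 at 12 months, with a log2 fold change of 0.82 ± 0.26 (adjusted p = 0.0413, limma). The groups overlapped through 2-month control replicate 3 and 12-month control replicate 4. The members that fell were Tgif2, at -0.61 ± 0.11, Tgif1, at -0.55 ± 0.14, and Pknox1, at -0.30 ± 0.10, and the Tgif proteins are known as corepressors in TGF-β and retinoid signalling. In Pdgfrb-KO libraries 2 of 11 were lower, where 4.46% of all genes were, among them Meis3 at -0.53 ± 0.14 (adjusted p = 0.0408, limma).

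Among chromatin regulators of the clusters, those that passed with age were lower at 12 months. Of 23 Polycomb members, 5 fell, 0 rose and 18 did not pass, where 11.4% of all genes were lower and 22.7% were called. The median log2 fold change of the Polycomb members was -0.08, against -0.01 over all genes. The 5 included Jarid2 at -0.50 ± 0.10, Cbx8 at -0.58 ± 0.12, Ezh2, the H3K27 methyltransferase, at -0.47 ± 0.11 and Mtf2 at -0.38 ± 0.11. Of 12 Trithorax group members and H3K27 demethylases, 6 fell and 0 rose, against the same shares of all genes, among them the demethylases Kdm6b, at -0.55 ± 0.11, and Kdm6a, at -0.36 ± 0.11, and the methyltransferase Kmt2b, at -0.34 ± 0.10. Those that fell included the writer Ezh2 and both of these erasers of the H3K27 mark. In Pdgfrb-KO libraries 1 of 23 Polycomb members, Phf19, was higher, at 0.58 ± 0.15 (adjusted p = 0.0378, limma), and 0 of 12 Trithorax group members passed, with Kmt2a at -0.34 ± 0.19. In that comparison 4.96% of all genes were higher and 4.46% lower. The part of cell types in the values of these regulators was not tested.

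Genes of retinoid metabolism set the level of the inducer retinoic acid. Of 15 genes of this and the Cdx and Gdf11 inputs tested with age, 4 rose and 1 fell, where 11.3% of all genes were higher and 11.4% lower. Aldh1a3, which makes retinoic acid, was at 518, 821, 734 and 349 normalized counts at 2 months, at 1293, 1722, 1413 and 1732 in 12-month controls and at 1016, 644, 508 and 593 in Pdgfrb-KO libraries. Cyp26b1, which degrades it, was at 530, 550, 453 and 639, at 1019, 969, 1190 and 694 and at 417, 440, 298 and 443 in the same groups. In both genes the 12-month controls were above all other libraries. The log2 fold changes with age were 1.41 ± 0.22 for Aldh1a3 (adjusted p = 0.0011, limma) and 0.82 ± 0.15 for Cyp26b1 (adjusted p = 0.0034), and those in Pdgfrb-KO libraries were -1.20 ± 0.20 (adjusted p = 0.0041) and -1.27 ± 0.18 (adjusted p = 0.0020). Aldh1a1, another enzyme of that step, rose by 0.50 ± 0.13 on the log2 scale, and Gdf11, a TGF-β family ligand known for axial patterning, was at -0.58 ± 0.11. Of 16 tested in the knockout comparison, 3 were lower and 0 higher, where 4.46% of all genes were lower, and the third was the retinoic acid receptor Rarb at -0.83 ± 0.20 (adjusted p = 0.0272).

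Other transcription factors of positional identity in mesenchyme were also examined. With age 10 of 33 tested rose and 3 fell, where 11.3% of all genes were higher and 11.4% lower, and the median log2 fold change was 0.35 against -0.01 over all genes. The fibroblastic stroma markers moved with them, with 8 of 12 higher and a median of 0.39, and their part was not tested. Those that rose included Twist2 at 0.77 ± 0.14, Irx5 at 1.06 ± 0.24, Six2 at 1.70 ± 0.35 and Emx2 at 0.97 ± 0.25. Tbx3, at -0.70 ± 0.13, Lhx2, at -1.61 ± 0.40, and Foxf1, at -0.70 ± 0.23, fell. Tbx15, a known marker of subcutaneous and trunk fat, rose by 0.45 ± 0.12 (adjusted p = 0.0177, limma), and Prrx1, the most abundant member, did not pass at 0.21 ± 0.11. In Pdgfrb-KO libraries 3 of 35 were lower and 0 higher, where 4.46% of all genes were lower, namely Emx2 at -1.02 ± 0.16, Lmx1b at -1.88 ± 0.39 and Six2 at -1.87 ± 0.41. Six2 stood at 17.0 normalized counts in 12-month controls and at 4.00 in Pdgfrb-KO libraries as means, so its change rests on few reads.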

How the data were processed

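Polyadenylated RNA of 12 libraries was prepared with a directional kit. Per the labels, the authors processed reads with Trim Galore 0.6.0, cutadapt, FastQC, STAR 2.7.0e and DESeq2 1.26.0 on GRCm38. The strand setting of the counting is not given in the sources used here. The deposited values are a score in the sense that the authors divided counts by DESeq2 size factors and rounded them, so no count test was run. There were 2 tables, 1 for each comparison, and the 12-month controls were equal in both for 100% of values.

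Linear models were fitted to log2(value + 1), using the limma package (version 3.58.1, R 4.3.3; trend, robust, two-sided, Benjamini-Hochberg over all genes tested, adjusted p under 0.05), after a filter of at least 10 in 4 of 8 libraries, or in 4 of 12 for the fit of all libraries. The code was tested on simulated data. Replicates are separate biological samples per the labels. Exon lengths and overlaps came from GENCODE vM21, which held all 39 Hox identifiers, and sequences from RefSeq (GRCm38.p6) and GENCODE. The median level per kb is over genes with a length. All Hox genes may be named. Of the other lists, up to 6 members past the threshold with the smallest p, up to 3 that did not pass, the 3 with the highest mean and any in a count of 5 or fewer were named. Tbx15 lies outside that rule and was chosen after its values were seen. The members and lists were chosen with earlier results of these data known. Rounding and depth limit genes of few counts, and intervals cover the spread between libraries. Alternatives changed the pseudocount (0.5, 5), the filter (none, mean of at least 50), the scaling (TMM, quantile, stromal markers), the variance model and the libraries used. Homeodomain features of the proteins were not analysed here, and some genes that entered the counts are not reported here.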

Additional observations from a re-analysis of the deposited data

Results flagged for a closer look

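A library far from the other 3 of its group was found in 4 of 108 groups of 4 values examined (28 tested Hox genes, the summed counts of the 4 clusters and the shares of the 4 clusters, in 3 groups), where chance alone gives about 1 in 20. Hoxa5 was at 401 normalized counts in 2-month control replicate 1, against 243 to 268 in the other 3. Hoxb2 was at 310 in 12-month control replicate 2, against 190 to 200, and Hoxb7 was at 279 in the same library, against 204 to 215. Hoxd4 was at 34 in 2-month control replicate 4, against 19 to 21. A split of the libraries of a group into unlike pairs is not seen by this rule.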

How the results depend on the processing

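Of the values of single Hox genes under all alternatives, 994 kept their side of the threshold, 20 passed where they had not, 36 no longer passed and 1 that had passed changed sign, which was Hoxc6 with age under stromal scaling, at -0.063 on the log2 scale. Among values that passed in neither fit, 15 with age and 28 between genotypes had the other sign. Stromal scaling gave 0 Hox genes higher and 14 lower with age and a Hox median of -0.54, with 491 of all genes higher and 7919 lower, and by its construction it moved the median of all genes. Between genotypes it gave 0 Hox genes lower, with 1852 of all genes higher and 377 lower. One fit of all 12 libraries gave 3 Hox genes higher and 2 lower with age, with 1206 of all genes lower, and 2 Hox genes lower between genotypes, with 1292 of all genes higher and 1308 lower. Between genotypes, no filter on low values gave 0 Hox genes lower, and limma without trend and robust estimation also gave 0, where 3 had an unadjusted p under 0.05 in the reported fit. With the longest coding transcript as the length, HoxC summed to 528 per kb. The causes of these other differences were not tested.

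When each replicate was left out, Hox genes higher with age numbered 3 to 6 and lower 3 to 4, and all genes 1255 to 1951 higher and 1101 to 2010 lower, with a Hox median of -0.21 to 0.01. The fewest Hox genes higher came without 2-month control replicate 2 and the most without 12-month control replicate 3. Between genotypes Hox genes lower numbered 0 to 1, and all genes 451 to 1054 higher and 344 to 824 lower, with a Hox median of -0.41 to -0.12. The 3-group test gave 8 to 14 Hox genes.

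To look for pairing, the group mean of each gene was subtracted, and the remaining deviations were correlated across genes, not the levels themselves. Deviations of same-numbered libraries correlated at -0.22 to 0.16 between ages and at -0.02 to 0.37 between genotypes. Those of libraries of different number correlated at -0.24 to 0.18 and at -0.34 to 0.365 in the same comparisons. Whether any samples were paired cannot be read from these values. With a replicate block, 5 Hox genes were higher and 3 lower with age, and 2 were lower between genotypes, Hoxb3 and Hoxa7. Between genotypes the block gave 1200 of all genes higher and 1180 lower, against 810 and 729 in the reported fit. Rounding and low counts limit genes such as Hoxd4, Hoxd10 and Hoxa11.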
